A study of Mus musculus with 54 samples.

Results

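The 8 genes described here, *Prdm9*, *Mei1*, *Dmc1*, *Psmc3ip*, *Mnd1*, *Msh4*, *Msh5* and *Mlh3*, encode proteins of meiotic recombination. They were chosen by symbol, with no measured value used, and all 8 were found among the 23284 genes of both count tables, 1 for whole testis and 1 for purified round spermatids and spermatocytes. All 8 passed the filter on low counts in each of the 16 comparisons below.

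In the first meiotic prophase, chromosomes are cut on purpose and repaired from the homologous chromosome, which helps homologs to pair and makes crossovers. PRDM9 methylates histone H3 where breaks will be made, and MEI1 is needed for breaks to form. DMC1 is the meiotic strand exchange protein and is assisted by the complex of MND1 with HOP2, the product of *Psmc3ip*, while MSH4 with MSH5 stabilizes joint molecules and MLH3 acts in resolving them as crossovers.

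The study asked what the testis loses when CTCF, a DNA-binding insulator protein, and its germ cell paralog BORIS (gene *Ctcfl*) are reduced together. Its 4 genotypes were WT, CTCF HET (*Ctcf*+/-, *Boris* intact), BORIS KO (*Boris*-/-, both *Ctcf* alleles present) and the combined mutant CM (*Ctcf*+/- *Boris*-/-, named DKO in the sample labels). All mice were C57BL/6 and 3 months old, and each germ cell preparation pooled 4 mice, so a library is a pool and not an animal. Each genotype had 3 libraries of whole testis, 3 of round spermatids and 3 of spermatocytes, except 2 for WT spermatocytes, and peak lists covered CTCF and BORIS in WT, CTCF in CM, and RNA polymerase II (Pol2) and H3K4me3, a mark of active promoters, in both. Whole testis means a collagenase and trypsin suspension enriched for germ cells, from which ribosomal RNA was removed, whereas the round spermatids and spermatocytes were elutriated, sorted on a DNA dye and sequenced as poly(A) RNA. Levels were therefore compared within a table only. In such bulk samples, fewer cells of a type and less RNA per cell cannot be told apart.

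Coordinates are those of mm9 with the GENCODE vM1 gene models, and positions are counted in bases from the start of the gene model, negative upstream. *Prdm9* lies at chr17:15680043-15701318 and *Mei1* at chr15:81900426-81957244, with *Mei1* alone on the plus strand and the other members on the minus strand. *Dmc1* lies at chr15:79391930-79435529, *Psmc3ip* at chr11:100953137-100956750 and *Mnd1* at chr3:83891856-83959708. *Msh4* lies at chr3:153520111-153569102, *Msh5* at chr17:35165550-35183690 and *Mlh3* at chr12:86575479-86611541. *Psmc3ip* is the shortest model, 3614 bp, and *Mnd1* the longest, 67853 bp.

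A BORIS peak lay at the start of 5 of these genes, and the first set of sequences shows the DNA of those peaks, since the members are told apart below by which factor was listed there. All are read 5′ to 3′ on the strand of the gene. For *Msh5* the line covers chr17:35183771-35183910 around the BORIS summit, with an E2F motif in capitals, and for *Mei1* it covers chr15:81900463-81900608, the BORIS peak and the 20 bases before it, in the first coding exon, with an E-box in capitals. For *Mnd1* (chr3:83959709-83959836) and *Mlh3* (chr12:86611542-86611637) it is the part of the peak upstream of the gene, and for *Psmc3ip* (chr11:100957091-100957209) the whole peak. Capitals in the *Psmc3ip* and *Mlh3* lines mark the 11 bases on the BORIS summit, and the *Mnd1* line has none because its summit lies inside the gene.
Msh5: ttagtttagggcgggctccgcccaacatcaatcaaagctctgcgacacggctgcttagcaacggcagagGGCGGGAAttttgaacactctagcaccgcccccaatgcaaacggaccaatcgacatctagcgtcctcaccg
Mei1: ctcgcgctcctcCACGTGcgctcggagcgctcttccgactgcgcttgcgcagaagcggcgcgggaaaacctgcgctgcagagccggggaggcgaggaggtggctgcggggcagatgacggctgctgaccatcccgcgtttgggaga
Mnd1: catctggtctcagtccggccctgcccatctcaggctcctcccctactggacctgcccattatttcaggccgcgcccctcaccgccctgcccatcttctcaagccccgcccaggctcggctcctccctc
Psmc3ip: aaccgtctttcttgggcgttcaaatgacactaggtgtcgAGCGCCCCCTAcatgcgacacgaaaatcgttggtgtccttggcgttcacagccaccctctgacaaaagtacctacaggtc
Mlh3: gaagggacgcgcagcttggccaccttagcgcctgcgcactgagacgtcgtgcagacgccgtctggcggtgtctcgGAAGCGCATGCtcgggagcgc

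The second set holds a promoter with no CTCF or BORIS peak and both CTCF-bound sites inside a member. The *Prdm9* line (chr17:15701319-15701438) is the stretch just before the gene, with an E2F motif on the opposite strand in capitals. Both *Mei1* lines (chr15:81911770-81911861 and chr15:81937550-81937641) show a match, in capitals, to the CTCF core consensus with 1 mismatch under a CTCF peak, the first in an intron and on the strand of the gene, the other in a coding exon and on the opposite strand.
Prdm9: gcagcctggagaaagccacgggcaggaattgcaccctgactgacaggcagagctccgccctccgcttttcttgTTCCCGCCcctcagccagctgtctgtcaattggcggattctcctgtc
Mei1 intron: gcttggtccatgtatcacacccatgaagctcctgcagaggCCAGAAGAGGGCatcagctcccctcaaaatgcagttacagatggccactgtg
Mei1 coding exon: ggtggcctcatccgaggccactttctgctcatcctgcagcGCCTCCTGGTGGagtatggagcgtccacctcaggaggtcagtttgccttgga

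Total counts ran from 10437683 to 42055813 in the whole testis libraries and from 47740650 to 98545423 in the others, and replicates differed by more than sampling noise in each group. Several libraries stood apart. A count was found for 12018 to 13406 genes in the CTCF HET spermatocyte libraries, against 17631 and 17683 in WT spermatocytes. In round spermatids labelled CM, replicate 2 had a summed level of 12 spermatogonial markers of 407 CPM (the count scaled to the library size after TMM), against 69.7 and 89.0 in its replicates and 43.5 to 46.4 in WT. *Ctcf* was lower in CTCF HET (27.7, 30.4 and 23 CPM) and CM (26.4, 26.9 and 24.3) than in WT (45.1, 40.9 and 42.1) in whole testis, and passed the test in CM (log2 fold change -0.74, adjusted p = 0.0329) but not in CTCF HET (adjusted p = 1). In round spermatids it was not lower in CM (171, 45.5 and 38.4 CPM, against 48, 30.0 and 28.4 in WT), nor in spermatocytes (89.3, 34.8 and 36.4 against 36.0 and 33.6), so these cells are named by their label only. In sorted CTCF HET cells *Ctcf* overlapped WT, at 33.07, 21.79 and 24.55 CPM in round spermatids and 41.71, 49.51 and 29.92 in spermatocytes. The genotype of those cells is likewise taken from their label. *Ctcfl* gave 2.06 to 2.38 CPM in BORIS KO round spermatids and 2.80 to 4.91 in WT. In spermatocytes labelled CM it was at 0, 0.397 and 0 CPM, against 0.0808 and 0.0667 in WT. Whether the *Ctcfl* reads of these mutant libraries fall outside the deleted part was not checked.

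Markers of the cell types bear on every level below. The 10 round spermatid markers summed to 13950 to 22260 CPM in WT whole testis, 1708 to 1974 in WT round spermatids and 276.2 to 322.4 in WT spermatocytes. Of the sorted cells, they were higher in those labelled round spermatids. The 10 markers of early spermatocytes summed to 4482 to 4788 CPM in WT round spermatids and to 5331 and 6530 in WT spermatocytes, so these markers separated the fractions much less. No marker of either list was at 0 in a WT library. Those early markers were lower in BORIS KO, at 2238 to 2336 CPM in round spermatids and 3516 to 3653 in spermatocytes. In CM whole testis the round spermatid sum was 3945 to 12300 CPM and the early spermatocyte sum 1033 to 1598 CPM, both below WT, while the 6 Leydig cell markers summed to 1739 to 3441 CPM against 355.6 to 558 in WT. The spermatogonial sum was also above WT there, at 154.4 to 445.4 CPM against 88.0 to 96.7.

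**Figure D1:**
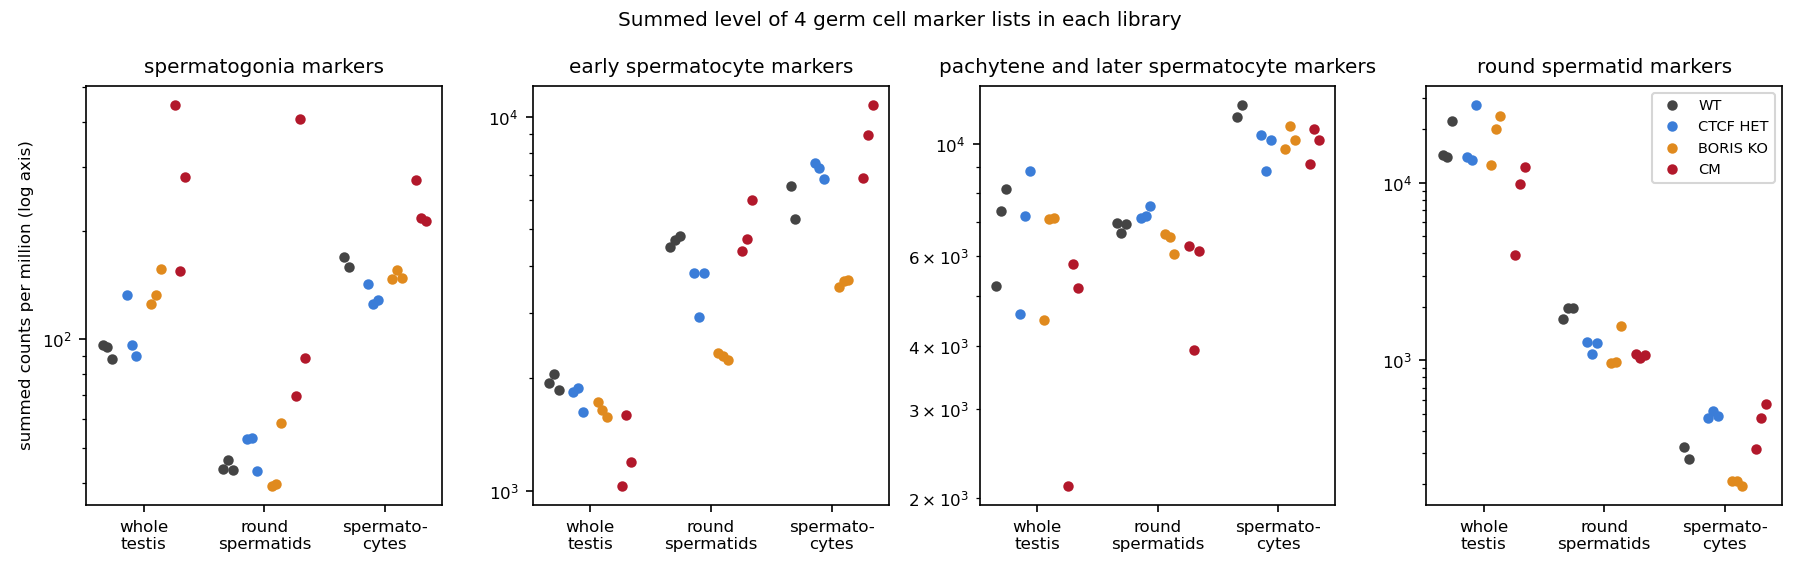
Summed level (CPM, log axis) of 4 germ cell marker lists in each library, by preparation and genotype, 1 point per library. Early spermatocyte markers sit between 4482 and 4788 in WT round spermatids and between 2238 and 2336 in BORIS KO round spermatids, and replicate 2 of the round spermatids labelled CM stands out for spermatogonial markers at 407.

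Per length, *Psmc3ip* was by far the most abundant member in WT whole testis, with 45.8 to 59.4 RPKM (CPM divided by the exon length in kilobases). *Mlh3* came next with 7.10 to 7.40 RPKM and did not overlap its neighbours in that order. *Mei1* (2.52 to 4.69 RPKM), *Msh5* (2.27 to 4.47) and *Msh4* (1.83 to 3.35) overlapped one another, and *Msh4* also overlapped *Dmc1* (1.45 to 2.16). *Mnd1* (0.531 to 1.43 RPKM) and *Prdm9* (0.302 to 0.525) were lowest, and the lowest count in a WT library was 7 for *Mnd1* and 15 for *Prdm9*, which limits what could be seen of them. The 3' end of *Psmc3ip* overlaps *Mlx*, so that reads there may belong to either gene.

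**Figure D2:**
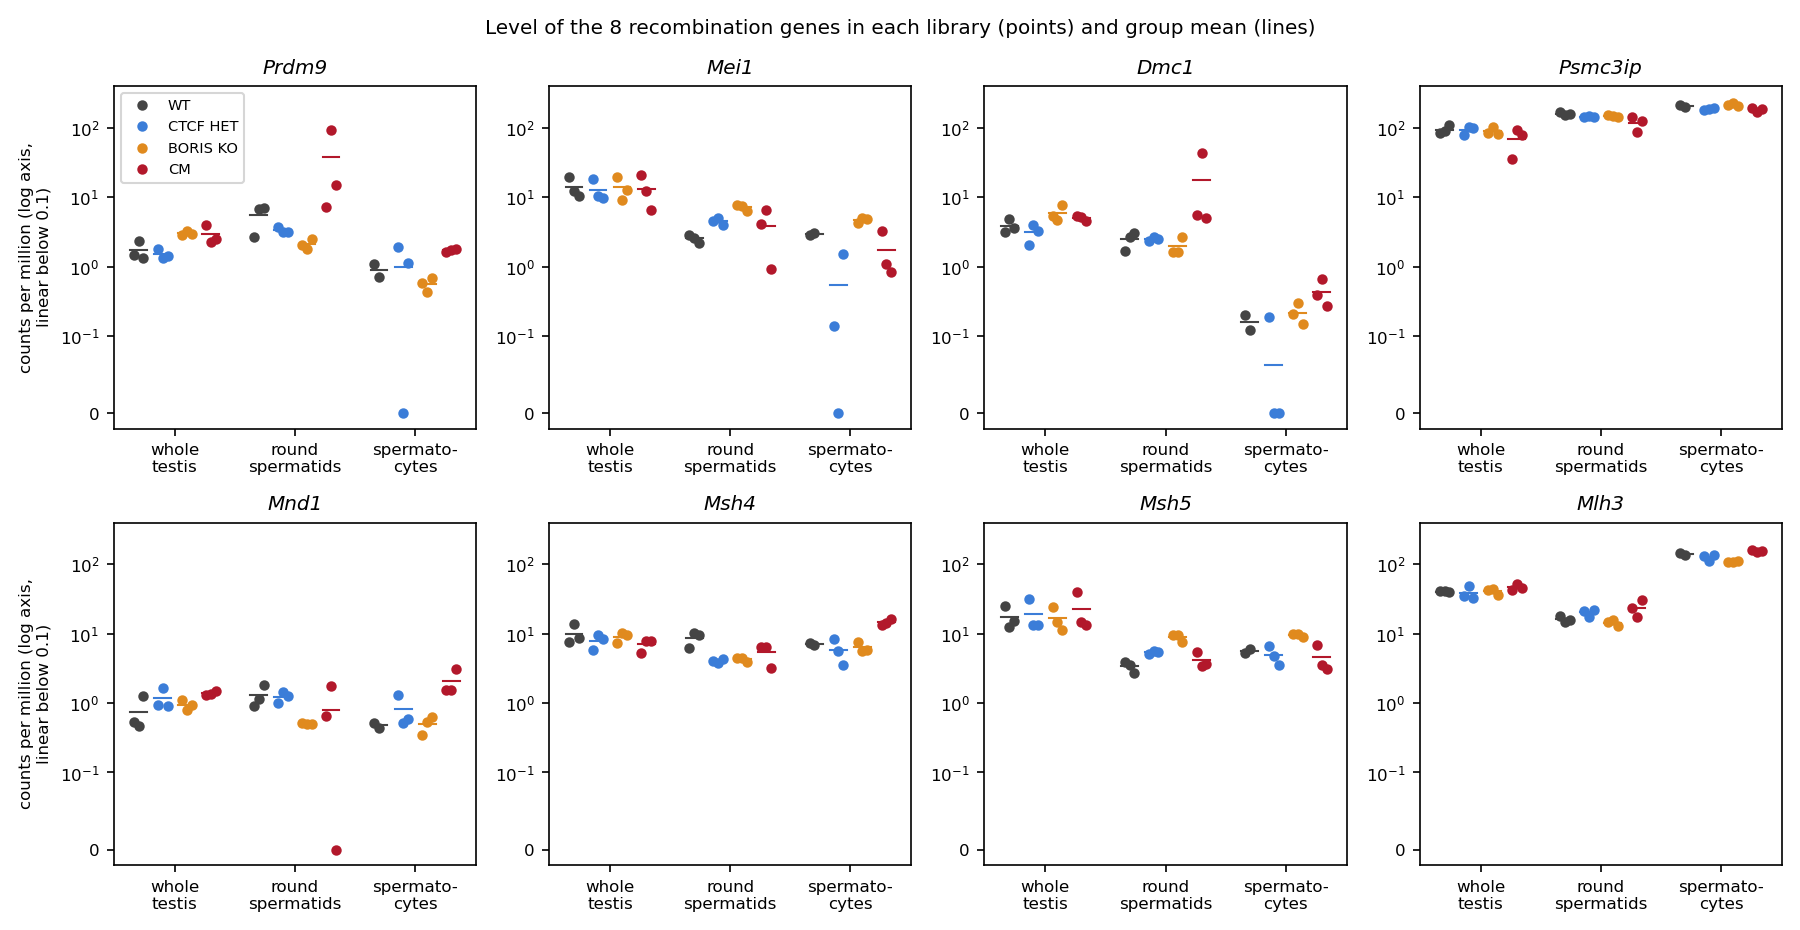
Level of each member (CPM, log axis, linear below 0.1) in every library by preparation and genotype, with the group mean as a line. *Mlh3* goes from 14.9 to 17.9 CPM in WT round spermatids to 137 and 147 in WT spermatocytes, and 1 library of the round spermatids labelled CM reaches 43.1 CPM for *Dmc1* and 92.0 for *Prdm9*.

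Between the WT fractions, *Dmc1*, *Prdm9* and *Mnd1* were higher in round spermatids and *Mlh3*, *Psmc3ip* and *Msh5* were higher in spermatocytes, with *Msh4* and *Mei1* not called. Thus 3 of 8 members were called higher and 3 lower in round spermatids at an adjusted p under 0.05 (edgeR quasi-likelihood test, Benjamini-Hochberg over all genes tested). Of all 16052 genes tested, 35.8% were called higher and 34.2% lower, 70% in all, so the members' 6 of 8 was close to the share of all genes. The contrast asks how the RNAs of prophase genes are spread over the 2 sorted fractions. The study estimated that neither fraction was fully pure, the spermatocytes less so than the round spermatids. A level here need not be that of a single stage.

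*Prdm9*, which sites the breaks, was measured at 2.69, 6.71 and 7.07 CPM in WT round spermatids and 1.09 and 0.707 in WT spermatocytes, with no overlap (log2 fold change 2.71, SE 0.49, edgeR adjusted p = 0.00198). *Mei1* was at 2.90, 2.61 and 2.16 and 2.81 and 3.07 CPM, and the groups overlapped (log2 fold change -0.11, SE 0.22, edgeR adjusted p = 0.682, 95% interval -0.63 to 0.41). Thus only 1 of the pair that acts at break formation differed between the fractions by this test.

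Among the strand exchange genes, *Dmc1* was at 1.70, 2.71 and 3.04 CPM in WT round spermatids and 0.202 and 0.120 in spermatocytes (log2 fold change 4.03, SE 0.45, edgeR adjusted p = 0.000144). Its spermatocyte values rest on 15 and 9 counts. All round spermatid libraries were above both spermatocyte libraries, a direction opposite to that of the early spermatocyte marker sum given above. Its partners differed: *Mnd1* was at 0.911, 1.15 and 1.80 against 0.512 and 0.440 CPM (log2 fold change 1.52, SE 0.41, edgeR adjusted p = 0.0125), but *Psmc3ip* was lower in round spermatids, at 169, 151 and 158 against 212 and 202 CPM (log2 fold change -0.28, SE 0.087, edgeR adjusted p = 0.0212). The *Mnd1*, *Psmc3ip* and *Msh5* calls were lost without either WT spermatocyte library (adjusted p = 0.0648 without replicate 1 and 0.0913 without replicate 2 for *Mnd1*, 0.138 and 0.0873 for *Psmc3ip*, and 0.0873 and 0.197 for *Msh5*), which leaves 3 members called. *Psmc3ip* was also lost without round spermatid replicate 2 (adjusted p = 0.0851) or 3 (adjusted p = 0.0518) and *Msh5* without replicate 3 (adjusted p = 0.0656).

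Of the crossover genes, *Mlh3* had the steepest difference, 17.9, 14.9 and 15.7 CPM in round spermatids against 147 and 137 in spermatocytes (log2 fold change -3.04, SE 0.11, edgeR adjusted p = 4.97e-07), and every spermatocyte library was far above every round spermatid library. *Msh5* was at 3.91, 3.53 and 2.74 against 5.28 and 5.99 CPM, a small gap between groups that did not overlap (log2 fold change -0.64, SE 0.21, edgeR adjusted p = 0.0292). *Msh4*, its partner, was at 6.16, 10.1 and 9.61 against 7.29 and 6.80 CPM and overlapped (log2 fold change 0.39, SE 0.25, edgeR adjusted p = 0.195).

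In the mutants, *Dmc1* and *Mlh3* were called in the same directions as in WT in each genotype. The log2 fold change of *Dmc1* was 5.2 (adjusted p = 0.0317) in CTCF HET, 3.18 (adjusted p = 2.07e-05) in BORIS KO and 5.47 (adjusted p = 0.00765) in libraries labelled CM, and that of *Mlh3* was -2.70, -2.89 and -2.64, each with an adjusted p at or under 0.000799. The CTCF HET value of *Dmc1* is set by spermatocyte libraries of 0.189, 0 and 0 CPM, where a count of 0 allows up to 0.0578 CPM (3 counts, counting error only), and its call was lost without any 1 of the round spermatid libraries (adjusted p = 0.0849 to 0.101). The value labelled CM fell to 3.64 without round spermatid replicate 2 (adjusted p = 0.0032), and that of *Prdm9*, 4.60, fell to 2.77.

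In CTCF HET, 1 of 8 members was called higher in round spermatids and 2 lower (*Mlh3* and *Psmc3ip*), where 29.7% of genes were higher and 23.9% lower (53.6% in all), and without spermatocyte replicate 3 it was 5 members, with *Msh4* and *Mei1* added. In BORIS KO, 3 were higher (*Dmc1*, *Prdm9* and *Mei1*) and 3 lower (*Mlh3*, *Psmc3ip* and *Msh4*), against 41.7% and 41.6% of all genes (83.3% in all). In libraries labelled CM, 2 were higher (*Dmc1* and *Prdm9*) and 2 lower (*Mlh3* and *Msh4*), against 16% and 11.9% (27.9% in all). The *Msh4* call there (log2 fold change -1.36, adjusted p = 0.0353) was lost without round spermatid replicate 3 (adjusted p = 0.0807) or any 1 of the spermatocyte libraries (adjusted p = 0.0787 to 0.107). The median log2 fold change of all genes tested was 0.272 in CTCF HET and 0.126 in libraries labelled CM, so members' values there are shifted by that much against the whole.

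**Figure D3:**
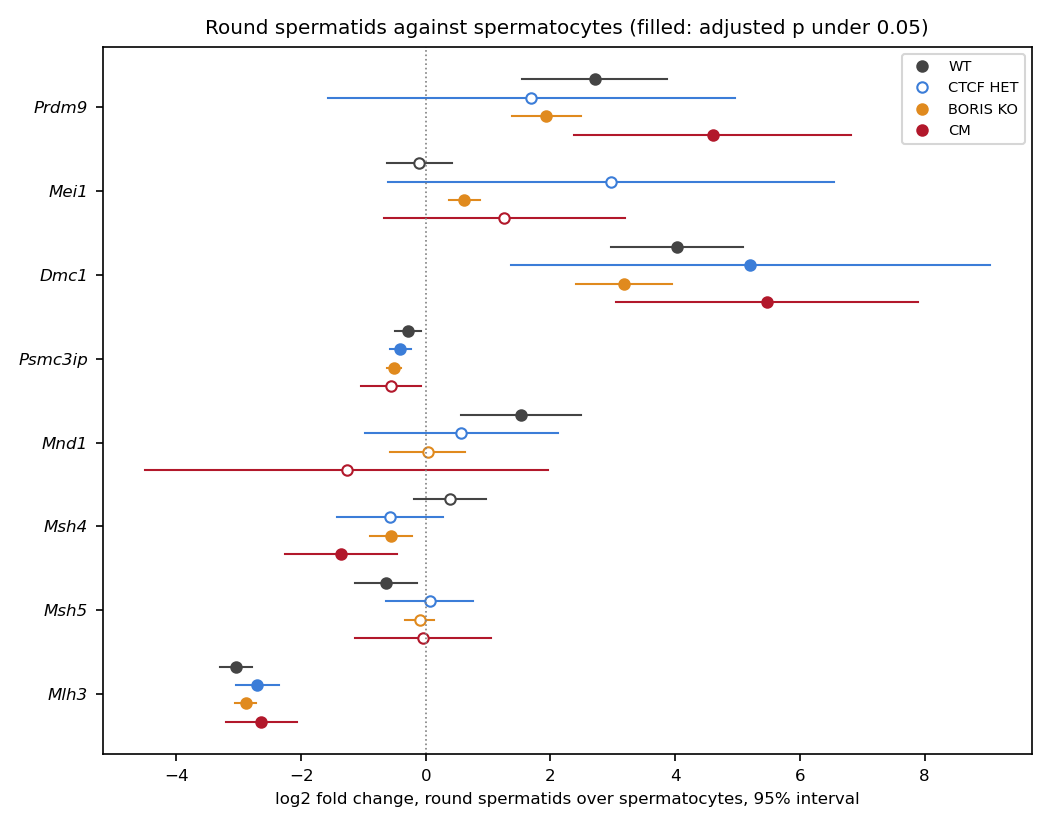
Log2 fold change of each member between round spermatids and spermatocytes within each genotype, with the 95% interval as a line and filled points for an adjusted p under 0.05. *Mlh3* lies between -3.04 and -2.64 in all 4 genotypes and *Dmc1* between 3.18 and 5.47, with wide intervals for *Dmc1* in CTCF HET and in the libraries labelled CM.

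In whole testis, no member was called in CTCF HET, BORIS KO or CM against WT, nor, without a replicate block, in CM against either single mutant. These comparisons ask whether loss of a *Ctcf* allele, of *Boris* or of both moves these genes in the tissue as a whole. With edgeR, 0 of 8 members were called in CTCF HET (0.00621% of 16097 genes tested), 0 in BORIS KO (0.0551% of 16344) and 0 in CM (25.2% of 16378). At an unadjusted p under 0.05 there were 0, 2 and 0 members, and DESeq2 also called 0 in each. CM against BORIS KO called 0 members (0.006% of all genes, 0 members at an unadjusted p under 0.05, 0 with DESeq2), and CM against CTCF HET called 0 (15.5% of all genes, 1 member at an unadjusted p under 0.05, 0 with DESeq2). With the replicate number as a block, CM against CTCF HET called 2 members, *Prdm9* (adjusted p = 0.0406) and *Psmc3ip* (adjusted p = 0.0443), beside 43% of all genes. The share of all genes called in CM against WT rested on single libraries, being 10.9% without WT replicate 1, 0.066% without WT replicate 2, 0.0178% without WT replicate 3 and 0.0239% without CM replicate 3. With the replicate block it was 43%, with no member called, and in BORIS KO against WT it was 6.59%. Whole testis values below are from the fit without that block unless stated, so their SE and p include the spread between replicate numbers. The 3 comparisons with WT share its libraries. Over the members, the log2 fold change ran from -0.33 (*Msh4*) to 0.74 (*Mnd1*) in CTCF HET, from -0.14 (*Msh4*) to 0.84 (*Prdm9*) in BORIS KO and from -0.52 (*Msh4*) to 0.93 (*Mnd1*) in CM.

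*Prdm9* was at 1.47, 2.32 and 1.33 CPM in WT and 1.82, 1.34 and 1.42 in CTCF HET. It was at 2.89, 3.21 and 2.98 CPM in BORIS KO and 3.97, 2.26 and 2.52 in CM. Each BORIS KO library was above each WT library, while CM overlapped WT by 1 library. The difference did not pass the test in BORIS KO (log2 fold change 0.84, SE 0.29, edgeR adjusted p = 0.235) or in CM (log2 fold change 0.77, SE 0.37, edgeR adjusted p = 0.15). Each CM library was also above each CTCF HET library (log2 fold change 0.92, SE 0.37, edgeR adjusted p = 0.11), and with the replicate number as a block that difference passed the test (0.90, adjusted p = 0.0406). *Mei1* was at 19.4, 12.3 and 10.4 CPM in WT and 18.2, 10.4 and 9.86 in CTCF HET. It was at 19.7, 9.23 and 12.8 CPM in BORIS KO and 20.6, 12.3 and 6.46 in CM, with replicate 1 the highest in every genotype and the genotypes overlapping. Its log2 fold change over WT was between -0.13 and 0.00091 in the 3 mutants.

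*Dmc1* was at 3.20, 4.77 and 3.56 CPM in WT and 2.03, 4.03 and 3.25 in CTCF HET. It was at 5.41, 4.74 and 7.60 CPM in BORIS KO and 5.30, 5.25 and 4.57 in CM. Genotypes lacking BORIS had the higher values, but 1 BORIS KO and 1 CM library lay within the WT range (log2 fold change 0.65, SE 0.28, edgeR adjusted p = 0.291 in BORIS KO and log2 fold change 0.38, adjusted p = 0.343 in CM). *Mnd1* was at 0.538, 0.464 and 1.25 CPM in WT and 1.31, 1.34 and 1.5 in CM, every CM library being above every WT library (log2 fold change 0.93, SE 0.44, edgeR adjusted p = 0.142, 95% interval -0.065 to 1.93). These levels rest on 7 to 19 counts per WT library. *Psmc3ip* was at 83.3, 91.2 and 108 CPM in WT and 35.3, 92.8 and 78.1 in CM, where replicate 1 was far below the rest. That library also had the lowest round spermatid marker sum of the 12, 3945 CPM against 9804 and 12300 in its replicates, and the part of this in the *Psmc3ip* level was not tested. The lower value of *Psmc3ip* in CM was not called against WT (log2 fold change -0.47, SE 0.35, edgeR adjusted p = 0.335), and against CTCF HET it was called with the replicate block alone (-0.57, adjusted p = 0.0443).

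*Mlh3* varied little between WT libraries of whole testis, at 41.0, 41.0 and 39.3 CPM in WT and 42.1, 51.4 and 46.1 in CM, where every CM library was above WT by a small margin (log2 fold change 0.19, SE 0.21, edgeR adjusted p = 0.515). The 95% interval of that change was -0.28 to 0.66 on the log2 scale. *Msh4* was at 7.50, 13.7 and 8.72 CPM in WT and 5.35, 7.81 and 7.96 in CM, overlapping (log2 fold change -0.52, SE 0.33, edgeR adjusted p = 0.258). *Msh5* was at 24.7, 12.5 and 15 CPM in WT and 39.8, 14.8 and 13.3 in CM (log2 fold change 0.36, SE 0.45, edgeR adjusted p = 0.563), with replicate 1, the deepest library of each genotype, again the highest in all 4. The spread between replicate numbers thus exceeded any difference between genotypes for *Msh5* and *Mei1*.

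Whether the effect of a lost *Ctcf* allele differs with and without BORIS was tested in 1 fit over the 12 whole testis libraries, and 0 of 8 members were called (0% of 17185 genes, 0 members at an unadjusted p under 0.05, 0 with DESeq2). The differences of log2 changes ran from -0.37 for *Psmc3ip* (95% interval -1.26 to 0.52) to 0.28 for *Msh5* (-1.17 to 1.74). The intervals are wide enough to hold a change of 1 log2 unit for *Msh5*, *Mei1*, *Mnd1*, *Prdm9* and *Psmc3ip*.

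In round spermatids, *Msh5* and *Mei1* were higher and *Msh4* was lower than in WT in both single mutants, and *Prdm9* and *Mnd1* were also lower in BORIS KO. In CTCF HET, 2 members were called higher and 1 lower, beside 9.51% and 12.8% of 15238 genes (22.3% in all). In BORIS KO, 2 were called higher and 3 lower, beside 26.8% and 29% of 15513 genes (55.8% in all), a share near that of all genes. In the libraries labelled CM, 0 of 8 were called (0.00654% of all genes, 2 members at an unadjusted p under 0.05, 0 with DESeq2). All 3 comparisons use the same WT libraries, so their calls are not independent. With all 4 genotypes in 1 fit, 0 members were called in CTCF HET, *Msh4*, *Msh5* and *Mei1* alone in BORIS KO, and *Dmc1* and *Prdm9* in the libraries labelled CM.

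*Prdm9* was at 2.69, 6.71 and 7.07 CPM in WT round spermatids and 3.67, 3.18 and 3.15 in CTCF HET. It was at 2.06, 1.79 and 2.46 CPM in BORIS KO and 7.34, 92.0 and 15.1 in libraries labelled CM. All BORIS KO libraries were below all WT libraries, and WT replicate 1 lay far under the other two. The change was called in BORIS KO (log2 fold change -1.43, SE 0.35, edgeR adjusted p = 0.0075) and not in CTCF HET (log2 fold change -0.74, adjusted p = 0.135). In the CM libraries replicate 2 alone was many times higher than any other, and the fitted change of 2.88 (adjusted p = 0.179) became 1.04 without it (adjusted p = 0.303). *Mei1* moved the other way in BORIS KO, at 7.73, 7.41 and 6.39 CPM against 2.90, 2.61 and 2.16 in WT, and CTCF HET lay between them at 4.53, 4.94 and 3.95. These 3 groups did not overlap, and both changes were called (log2 fold change 1.45, SE 0.18, edgeR adjusted p = 0.000167 in BORIS KO, and log2 fold change 0.78, adjusted p = 0.0201 in CTCF HET). The libraries labelled CM, 4.05, 6.49 and 0.913 CPM, ran from below every WT library to within the BORIS KO range.

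For *Dmc1* the WT libraries had 1.70, 2.71 and 3.04 CPM, CTCF HET 2.34, 2.67 and 2.53 and BORIS KO 1.63, 1.61 and 2.67, all overlapping. The libraries labelled CM had 5.61, 43.1 and 4.96 CPM, each above WT, with replicate 2 again far above the rest. The fitted change was 2.94 (SE 0.89, adjusted p = 0.174) and 1.09 without that library (adjusted p = 0.165). Its spermatogonial marker sum, given above, was also the highest of the round spermatid libraries, and the part of this in *Dmc1* and *Prdm9* was not tested. *Mnd1* fell in BORIS KO, from 0.911, 1.15 and 1.80 CPM in WT to 0.512, 0.506 and 0.505 with no overlap (log2 fold change -1.38, SE 0.34, edgeR adjusted p = 0.00694). CM libraries gave 0.647, 1.75 and 0 CPM, where the count of 0 allows up to 0.0442 CPM. *Psmc3ip* was at 151 to 169 CPM in WT and 145 to 153 in BORIS KO and was called in none of the mutants.

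Among the crossover genes, *Msh4* was at 6.16, 10.1 and 9.61 CPM in WT, 3.97, 3.78 and 4.28 in CTCF HET and 4.51, 4.43 and 3.92 in BORIS KO, so both single mutants lay below every WT library. The change was nearly the same in both (log2 fold change -1.13, SE 0.21, edgeR adjusted p = 0.00942 in CTCF HET, and log2 fold change -1.05, adjusted p = 0.00279 in BORIS KO), and with the CTCF HET libraries in place of WT as the reference BORIS KO differed by 0.092 (adjusted p = 0.631). *Msh5* was at 3.91, 3.53 and 2.74 CPM in WT, 5.07, 5.56 and 5.51 in CTCF HET and 9.64, 9.47 and 7.64 in BORIS KO, a rising order without overlap (log2 fold change 1.35, SE 0.18, edgeR adjusted p = 0.000299 in BORIS KO, and log2 fold change 0.64, adjusted p = 0.0335 in CTCF HET). MSH4 and MSH5 work as a pair, and their RNAs moved in opposite directions here. Early spermatocyte markers summed to 2926 to 3825 CPM in the first mutant and 2238 to 2336 in the second, both below WT. The round spermatid markers themselves were also below the 1708 to 1974 CPM of WT, with sums of 1086 to 1263 (CTCF HET), 960.4 to 1566 (BORIS KO) and 1028 to 1087 CPM (labelled CM). The part of either marker list in the calls of round spermatids, lower or higher, was not tested. The *Msh5* and *Mei1* calls of CTCF HET were fragile: without WT replicate 2 the adjusted p was 0.0897 and 0.0657, without WT replicate 3 0.117 and 0.0781, without CTCF HET replicate 1 0.0931 and 0.0814, and without CTCF HET replicate 2 0.103 and 0.0754. Without CTCF HET replicate 3 only *Msh5* was lost (adjusted p = 0.0907), and without WT replicate 1 the count rose to 5 with *Mlh3* and *Prdm9*. *Mlh3* was at 14.9 to 17.9 CPM in WT and 13.0 to 15.9 in BORIS KO and was not called in any mutant with all libraries.

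**Figure D4:**
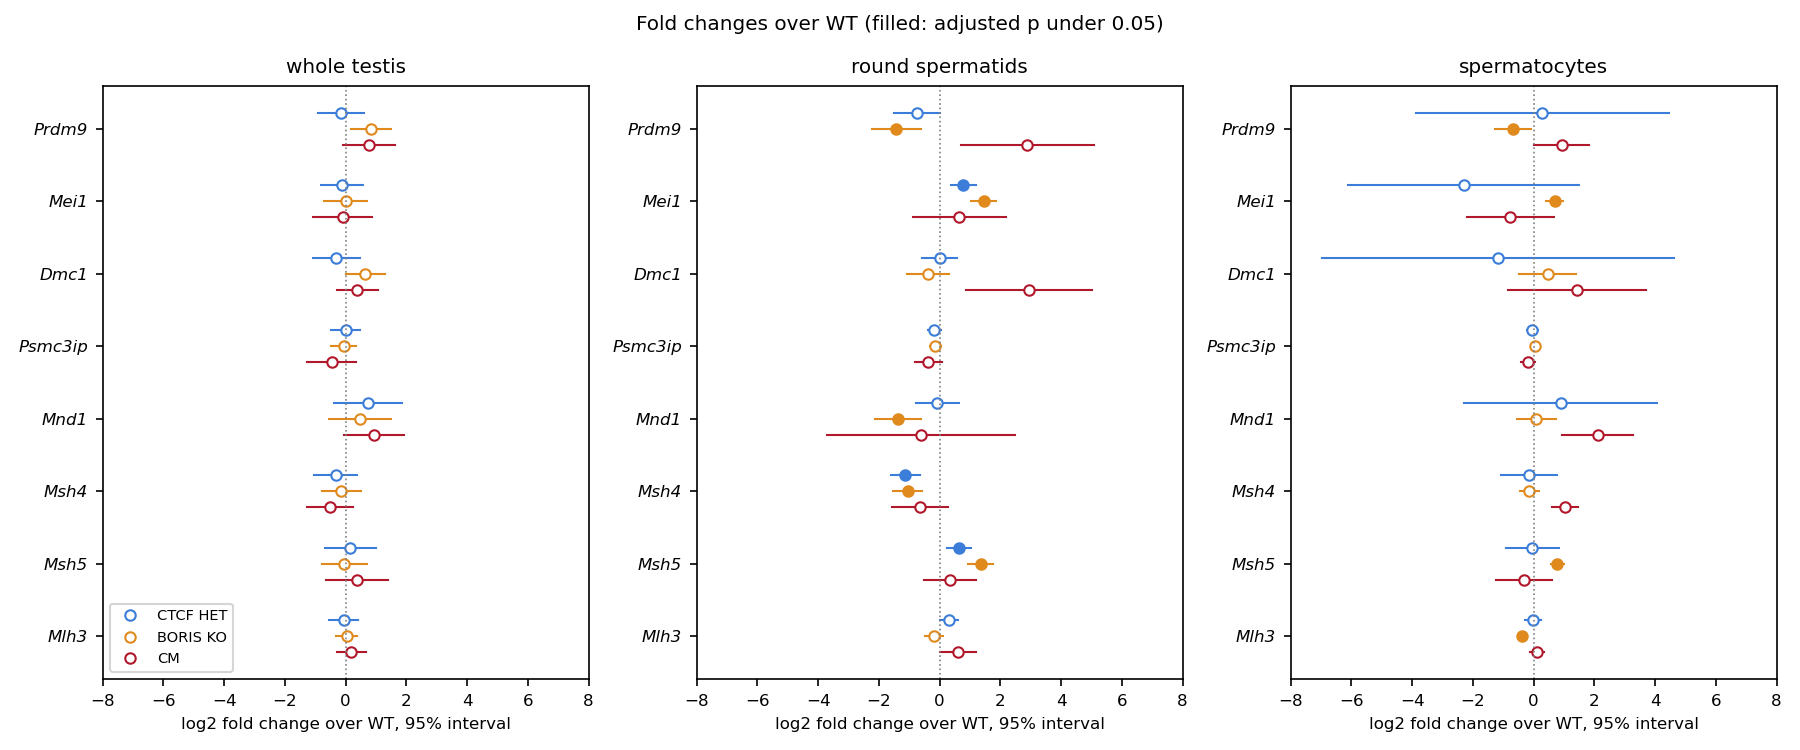
Log2 fold change of each member over WT in whole testis, round spermatids and spermatocytes, for CTCF HET, BORIS KO and CM, with the 95% interval as a line and filled points for an adjusted p under 0.05. No point is filled in whole testis, and in round spermatids *Msh5* and *Mei1* lie at 0.64 to 1.45 and *Msh4* at -1.13 and -1.05 in the single mutants.

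In spermatocytes, *Msh5* and *Mei1* were again higher in BORIS KO, and *Mlh3* and *Prdm9* were lower. These 2 higher and 2 lower calls stand beside 29.1% and 28.1% of 14338 genes (57.2% in all), so the number of members called is near the share of all genes. In CTCF HET, 0 of 8 were called (15.5% of 13648 genes, 0 members at an unadjusted p under 0.05, 0 with DESeq2). In the libraries labelled CM, edgeR called 0 of 8 (0.604% of 14747 genes, 3 members at an unadjusted p under 0.05) and DESeq2 called 2, *Msh4* and *Mnd1*. WT spermatocytes had 2 libraries, which every one of these comparisons shares. With all genotypes in 1 fit, *Mlh3* alone was called in BORIS KO.

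*Msh5* was at 5.28 and 5.99 CPM in WT spermatocytes and 10.0, 9.95 and 9.09 in BORIS KO, with every BORIS KO library above both WT libraries (log2 fold change 0.78, SE 0.10, edgeR adjusted p = 4.48e-05). *Mei1* was at 2.81 and 3.07 and 4.30, 5.09 and 4.87 CPM, also without overlap (log2 fold change 0.69, SE 0.12, edgeR adjusted p = 0.000484). Both genes thus lay above WT in BORIS KO in both sorted fractions. *Mlh3* fell from 147 and 137 CPM in WT to 108, 108 and 111, with BORIS KO replicates within 3 CPM of each other (log2 fold change -0.38, SE 0.059, edgeR adjusted p = 0.000157). *Prdm9* was at 1.09 and 0.707 CPM in WT and 0.575, 0.428 and 0.691 in BORIS KO, a narrow gap at few counts (log2 fold change -0.68, SE 0.27, edgeR adjusted p = 0.0494). That call was lost with DESeq2 (adjusted p = 0.124), without WT replicate 1 (adjusted p = 0.479) and without BORIS KO replicate 2 (adjusted p = 0.176). Early spermatocyte markers summed to 3516 to 3653 CPM in these BORIS KO libraries, below WT, and their part in *Mlh3* and *Prdm9* was not tested.

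*Msh4*, *Mnd1* and *Prdm9* were higher in each spermatocyte library labelled CM than in WT. *Mlh3* was also higher in each, at 163, 149 and 153 CPM against 147 and 137. *Psmc3ip* was lower in each, at 195, 168 and 188 CPM against 212 and 202, and neither gene was called. The share of all genes that separate in this way was not counted. *Msh4* was at 13.1, 14.1 and 16.5 CPM against 7.29 and 6.80 (log2 fold change 1.04, SE 0.18, edgeR adjusted p = 0.058), and *Mnd1* at 1.54, 1.56 and 3.15 against 0.512 and 0.440 (log2 fold change 2.10, SE 0.48, edgeR adjusted p = 0.069). Without CM replicate 1, edgeR called *Msh4* (1.11, adjusted p = 0.00474), *Mnd1* (2.29, adjusted p = 0.0151), *Msh5* (-0.74, adjusted p = 0.0452) and *Mei1* (-1.59, adjusted p = 0.0133). *Msh5* was at 6.91, 3.60 and 3.15 CPM and *Mei1* at 3.21, 1.09 and 0.846, and replicate 1 alone was above the WT libraries. *Dmc1*, at 0.384, 0.656 and 0.266 CPM against 0.202 and 0.120, was higher in each CM library and not called (log2 fold change 1.43, SE 0.95, edgeR adjusted p = 0.354). Early spermatocyte markers summed to 6839 to 10740 CPM in these libraries, above WT. The spermatogonial markers summed to 212.2 to 275.5 CPM there, against 158.9 and 168.5 in WT. The part of either list in these levels was not tested.

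In CTCF HET spermatocytes *Mei1*, *Prdm9* and *Dmc1* were at 0 in at least 1 library. *Mei1* was at 0.137, 0 and 1.52 CPM, *Prdm9* at 1.89, 0 and 1.11 and *Dmc1* at 0.189, 0 and 0, where a count of 0 allows up to 0.0578 CPM in replicate 2 and 0.0606 in replicate 3. *Mnd1*, also a low member, was at 1.32, 0.520 and 0.586 CPM, each library above both WT libraries (0.512 and 0.440), and was not called (log2 fold change 0.89, adjusted p = 0.766). The difference of *Mei1* from WT was -2.31 (SE 1.62, adjusted p = 0.421), with a 95% interval of -6.10 to 1.48. These libraries detected the fewest genes of the series. Of the members with more counts, *Mlh3* differed from WT by -0.034 (95% interval -0.29 to 0.23) and *Psmc3ip* by -0.039 (-0.23 to 0.15).

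The other genes of the pathway were read from 3 fixed lists: 9 break formation genes, 24 of end resection and strand exchange and 15 of crossover designation and resolution that the tables hold. In CM whole testis, where 25.2% of all genes were called, 1 of 8 break formation genes tested was called lower, *Spo11*, the enzyme that cuts the DNA (62.5 to 71.5 CPM in WT and 27.0 to 39.2 in CM, log2 fold change -0.93, SE 0.24, edgeR adjusted p = 0.0246). Of the 24 strand exchange genes 1 was called lower, *Rpa1*, a subunit of the protein that coats single-stranded DNA (342.5 to 412 CPM in WT and 174.5 to 241.8 in CM, log2 fold change -0.80, SE 0.23, adjusted p = 0.0385), and none of the 15 crossover genes was called. The list medians were -0.10, -0.053 and -0.030 on the log2 scale, beside 0.0035 for all genes tested. Early spermatocyte markers summed to 1033 to 1598 CPM in these libraries and 1861 to 2055 in WT, and their part in the *Spo11* and *Rpa1* values was not tested. Members' values in CM whole testis lay on both sides of the medians, from -0.52 for *Msh4* to 0.93 for *Mnd1*.

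In BORIS KO sorted cells most break formation genes were called lower, while the crossover list was split. In spermatocytes, where 29.1% of all genes were called higher and 28.1% lower, 7 of 8 break formation genes tested were called lower and none higher, and 13 of 24 strand exchange genes were lower and 2 higher (*Rad54l* and *Rpa2*, named after their values were seen). Of the crossover list, 5 of 15 were lower (*Hfm1*, *Cntd1*, *Gen1*, *Blm* and *Rmi1*). *Cdk2*, *Mus81* and *Eme1* were among those higher, whose full number is not reported here, so it is not set beside the share of all genes. All were named after their values were seen. The median log2 fold changes were -0.54, -0.26 and 0.013, beside 0.022 for all genes tested. In round spermatids, where 26.8% of all genes were called higher and 29% lower, 5 of 9 break formation genes were called lower (*Spo11*, *Mei4*, *Hormad1*, *Hormad2* and *Hells*) and none higher, a median of -0.95 beside -0.013 for all genes. There 11 of 24 strand exchange genes were lower and 4 higher (*Rad54l*, *4930432K21Rik*, *Rpa1* and *Rpa2*, median -0.32). The crossover genes were again split, with 5 of 15 higher (*Cdk2*, *Mus81*, *Eme1*, *Slx4* and *Top3a*) and 5 lower (*Hfm1*, *Tex11*, *Gen1*, *Blm* and *Rmi1*, median 0.088). These names too were chosen after their values were seen. Early spermatocyte markers summed to 3516 to 3653 CPM in BORIS KO spermatocytes, against 5331 and 6530 in WT, and to 2238 to 2336 CPM in BORIS KO round spermatids, against 4482 to 4788 in WT, and their part in these counts was not tested. *Prdm9* fell with the break formation list in both fractions, and *Mei1* did not.

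In CTCF HET round spermatids, where 9.51% of all genes were called higher and 12.8% lower, 1 of 9 break formation genes was lower (*Hormad1*), 4 of 24 strand exchange genes were higher (*Rad51c*, *Xrcc3*, *4930432K21Rik* and *Rpa1*) and 4 lower (*Rad51ap2*, *Sfr1*, *Nbn* and *Rbbp8*), and 2 of 15 crossover genes were higher (*Cntd1* and *Top3a*) and 2 lower (*Tex11* and *Gen1*). In its spermatocytes, where 15.5% of all genes were called, *Hormad1* was higher and *Ccdc36* lower of 8 break formation genes, *Sfr1* and *Rad50* were higher and *Xrcc3*, *Rad54l* and *4930432K21Rik* lower of 24 strand exchange genes, and *Cdk2*, *Mus81* and *Top3a* were lower of 15 crossover genes. In libraries labelled CM, *Sfr1* was the single gene of the lists called, higher in spermatocytes (log2 fold change 1.77). All were named after their values were seen.

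Between the WT fractions, where 35.8% of all genes were called higher in round spermatids and 34.2% lower, 8 of 9 break formation genes were lower in round spermatids and 1 higher (*Mei4*, named after its values were seen), a median of -1.20. Of the 24 strand exchange genes 17 were lower and 4 higher (*Rad51ap2*, *Brca1*, *Mre11a* and *Nbn*, named likewise), and of the 15 crossover genes 8 were lower and 2 higher (*Tex11* and *Gen1*), with medians of -0.93 and -0.89 beside 0.015 for all genes tested. *Dmc1*, *Prdm9* and *Mnd1* therefore went the other way from most genes of the matching lists, and *Mlh3*, *Psmc3ip* and *Msh5* the same way. The *Mnd1*, *Psmc3ip* and *Msh5* calls were the fragile ones described above. With all genotypes in 1 fit, *Mnd1* and *Msh5* were not called (edgeR adjusted p = 0.273 and 0.0761).

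CTCF and BORIS peaks divided the members into 3 groups. A BORIS peak with no CTCF peak lay at the start of *Msh5* and *Mei1*, both kinds lay at the start of *Mnd1*, *Psmc3ip* and *Mlh3*, and neither at *Prdm9*, *Dmc1* and *Msh4*. Within 1 kb of the start, 3 of 8 members had a WT CTCF peak, where 22.6% of 22225 protein-coding genes had one, 5 had a WT BORIS peak (11.8%), and 2 had a CTCF peak in CM (6.69%). The 2 members with BORIS alone stand beside 2.88% of genes, the 3 with both beside 8.9%, and the 3 with neither beside 74.5%. A single member, *Mlh3*, had a CTCF peak in WT and none listed in CM, as did 16.1% of genes. Each list is a single set of peaks with no replicate values and unstated scaling, so heights are read as ranks within a list.

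The BORIS peak at *Msh5* (chr17:35183590-35183956) overlapped its first exon and had a height of 183, in the top 18.3% of the 7652 BORIS peaks, with its summit at -150. That of *Mei1* (chr15:81900483-81900608) had a height of 45, a weak peak at the top 83.8%, with its summit at 80 in the first coding exon. The vM1 model of *Mei1* begins at its coding sequence, so its true start may lie further upstream. *Msh5* and *Mei1*, the members with a BORIS peak alone, were the members called higher in BORIS KO in both sorted fractions. With all genotypes in 1 fit, neither was called in BORIS KO spermatocytes. Both were also called higher in CTCF HET round spermatids, where *Boris* is intact. In BORIS KO whole testis neither was called and both overlapped WT. Mean levels there were 16.8 CPM for *Msh5* (17.4 in WT) and 13.9 CPM for *Mei1* (14.0 in WT). In spermatocytes labelled CM, which lack *Boris* by label, their log2 fold changes were -0.312 and -0.775, not called. Whether the peak has a part in these calls was not tested, and the peaks were mapped in germ cell-enriched suspensions while the calls are from sorted cells.

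*Mnd1* held the strongest site, with a CTCF peak of height 2533 (chr3:83959399-83959964, top 10.4% of 34625) and a BORIS peak of height 391 (top 5.95%) on nearly the same bases, their summits at 18 and 52. In CM a CTCF peak of height 144 was listed there, in the top 86.2% of the 21525 peaks of that list. The lists differ in length and highest value (4391 in WT and 968 in CM), so no change is read from these ranks. At *Psmc3ip* the CTCF peak (chr11:100956436-100957364) had a height of 978 with its summit at -395, and a weak BORIS peak of 46 lay at -415. The CM list kept a peak there with a height of 177 (top 77.5%). At *Mlh3* the CTCF height was 285 (chr12:86611401-86611689, top 62.5%) and the BORIS height 35 (top 91.8%), with summits at -2 and -16. In the upper 50% of heights, *Msh5* and *Mnd1* alone kept a BORIS peak, and no member kept a CTCF peak in CM.

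Inside the genes, *Mei1* held CTCF peaks with summits at 11443 (height 107, intron) and 37164 (height 446, coding exon). The first was not listed in CM, and the other was, with a height of 123. *Prdm9* held a weak BORIS peak of height 36 in a coding exon near its 3' end, with its summit at 20086.

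**Figure D5:**
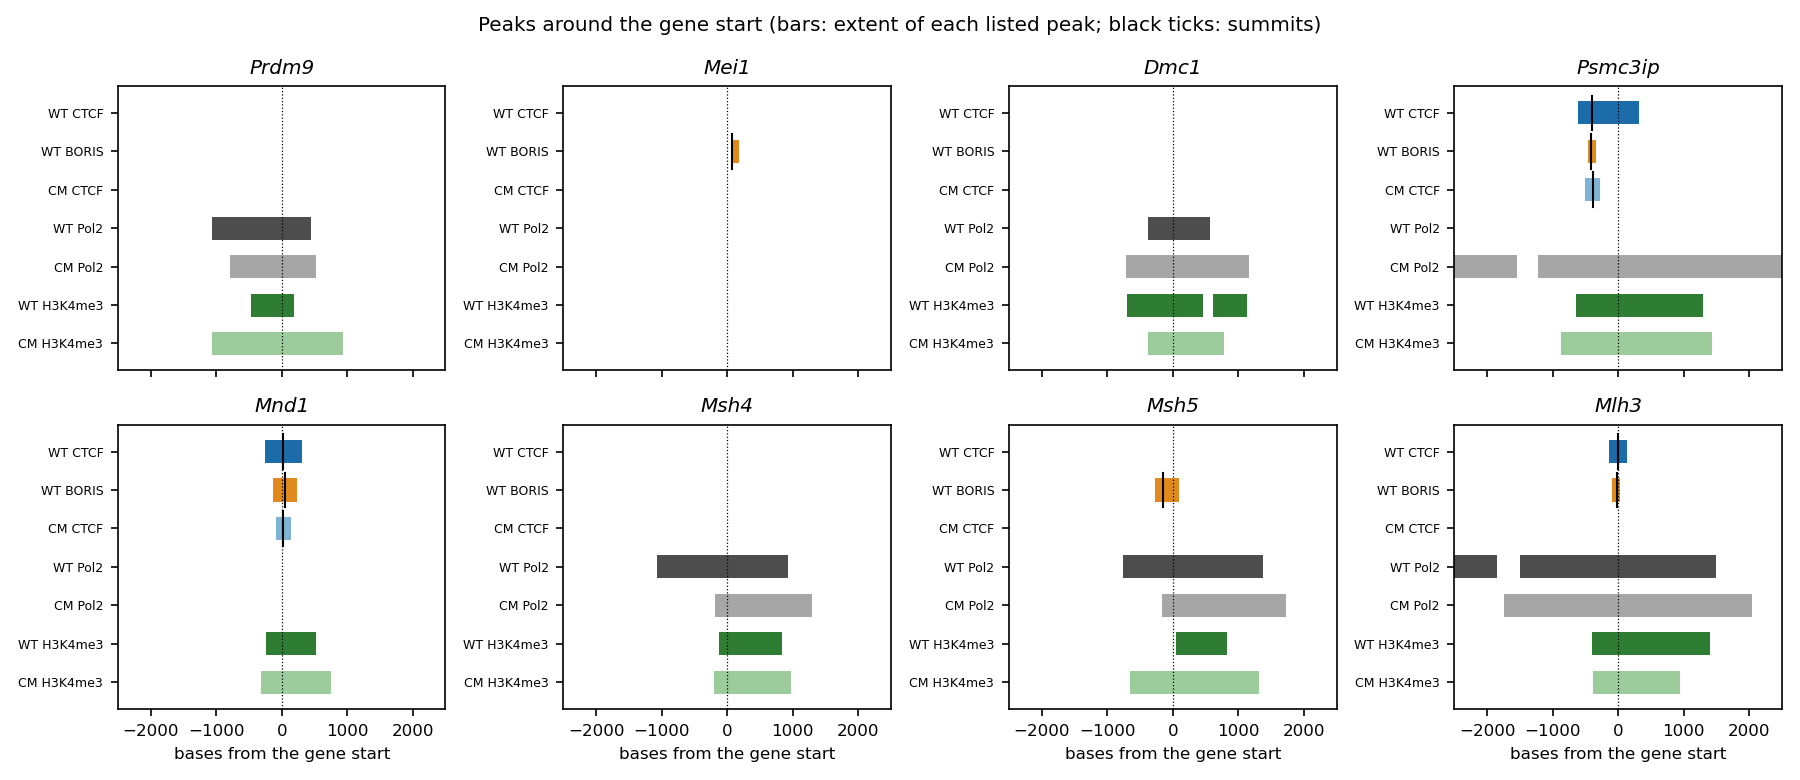
Peaks of the 7 lists near the start of each member, drawn as bars against the distance from the start (bp). *Msh5* and *Mei1* show a BORIS bar and no CTCF bar, *Mnd1*, *Psmc3ip* and *Mlh3* show both, and *Mei1* is the member with no H3K4me3 bar.

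Pol2 and H3K4me3 peaks marked most starts in both genotypes. An H3K4me3 peak lay at 7 of 8 members in WT and in CM, all but *Mei1*, where 47.7% and 52.5% of genes had one. A Pol2 peak lay at 5 members in WT (36% of genes) and 6 in CM (42.8%), with *Psmc3ip* added in CM and *Mnd1* and *Mei1* without one in either. The H3K4me3 peak at *Prdm9* was in the top 72.8% of the WT list (score 71.19) and in the top 16% of the CM list (score 675.71). At *Dmc1* the Pol2 peak was in the top 97% in WT (score 52.31) and the top 22.4% in CM (score 341.34), and its strongest H3K4me3 peak in the top 15.3% and the top 58.7%. The H3K4me3 lists hold 34347 and 20432 peaks and the Pol2 lists 25192 and 28407, each a single set with no replicate values, so these values describe each list and are not a comparison of the genotypes.

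Sequence motifs were searched on both strands of each promoter, 250 bases before to 50 bases after the start. The E2F motif GGCGGGAA (TTCCCGCC on the other strand) was found at *Msh5* and *Prdm9*, beside 2.83% of 22225 promoters, and the E-box CACGTG at *Mei1* (-221 to -216), beside 7.78%. The *Mei1* E-box printed above, at 49 to 54, and an E2F motif of *Psmc3ip*, at 47 to 54, cross the edge of that stretch and were not counted. No member promoter matched the CTCF core consensus with at most 1 mismatch, as 4.69% did. In windows of 200 bases on the summits, the CTCF core was found under both *Mei1* peaks printed above, and under 56.3% of all WT CTCF peaks and 52.9% of BORIS peaks. The E2F motif at *Msh5* spans -151 to -144, on the summit of its BORIS peak, and 3.01% of BORIS summit windows held that motif. An E-box (4.74% of BORIS summit windows) lay in the windows of *Mei1* and *Mlh3*, but outside the listed BORIS peaks themselves. A match describes the letters only.

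Genes whose log2 CPM followed a member most closely were sought over all libraries of a table, as a description. Over the 12 whole testis libraries these were *Rrbp1* for *Mei1* (Pearson r = 0.97), *Adamts6* for *Dmc1* (0.923), *1110004E09Rik* for *Psmc3ip* (0.99), *Il1rl2* for *Mnd1* (0.814), *9530080O11Rik* for *Msh4* (0.963), *Pcif1* for *Msh5* (0.978) and *Bnip2* for *Mlh3* (0.863). Over the 23 libraries of sorted cells they were *Bmpr2* for *Prdm9* (0.973), *Fitm1* for *Mei1* (0.948), *Xylb* for *Dmc1* (0.973), *Iscu* for *Psmc3ip* (0.965), *Lamb1* for *Mnd1* (0.92), *Slmo1* for *Msh4* (0.832), *Nfs1* for *Msh5* (0.942) and *Ccdc77* for *Mlh3* (0.995). In neither table was a member's closest gene another member, and the nearest gene differed between the tables for each member given in both. Among the members, *Msh5* and *Mei1* went together in whole testis (r = 0.799) while *Msh4* and *Msh5* went apart (r = -0.825), and *Dmc1* and *Prdm9* went together in the sorted cells (r = 0.842). The first pairs were much less alike or apart in the sorted cells (r = 0.292 and -0.268), and *Dmc1* with *Prdm9* gave 0.66 in whole testis. All these values share library depth, genotype and fraction, and those of the closest genes are the highest of 17184 genes in whole testis and 17313 in the sorted cells.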

How the data were processed

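The authors deposited raw read counts under gene symbols, not normalized, as separate tables for whole testis and for sorted cells. Reads were aligned to mm9 with TopHat2 and Bowtie2 (whole testis) or STAR (sorted cells). The submitters' processing notes also name Bowtie, Cufflinks 2.0.0 and DESeq2, and the counting tool, annotation and use of strand are not given in the sources used here. The deposited CTCF and BORIS lists give a peak height, a signal of unstated scaling, and a summit position, and the deposited Pol2 and H3K4me3 lists give a MACS score per peak. Peak depth is unknown, and how the ChIP replicates were combined is not stated.

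Counts were filtered with filterByExpr (minimum 10 per library at the median depth, 15 in total), scaled by TMM and tested with edgeR 4.0.16 (R 4.3.3, limma 3.58.1) by the quasi-likelihood F test with robust estimation, fitted across all genes of the groups compared. Genes counted as called had a Benjamini-Hochberg adjusted p under 0.05. Alternatives were RLE scaling, DESeq2 1.42.0, no filter, all groups in 1 fit, a replicate block, the study's thresholds (adjusted p under 0.001 and fold change over 2) and leaving out each library. RPKM used exon lengths of the GENCODE vM1 models. A peak was at a promoter when it overlapped the start by up to 1 kb either side, and at a locus within 2 kb of the gene. The fit was tested on simulated data before use.

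The members, gene lists, markers and tests were chosen with earlier results of these data known. Named genes are the members, *Ctcf* and *Ctcfl*, up to 3 genes per direction of each pathway list called in CM whole testis, and the gene most alike each member in each table. Other pathway genes called were named after their values were seen. Some genes under this rule are not reported here. Libraries were grouped by their titles. The whole testis libraries are stated to come from 3 separate preparations, and nothing is stated for the sorted replicates, so p-values there measure the spread between libraries, which may be technical. In whole testis, libraries with the same replicate number deviated together from their group means in 18 of 18 pairs (r from 0.106 to 0.614), so the numbers were read as pairing them, which held for 2 of 18 pairs in round spermatids and 0 of 15 in spermatocytes. Intervals for counts of 0 cover counting error only.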

Additional observations from a re-analysis of the deposited data

Results flagged for a closer look

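The *Prdm9* values of BORIS KO lay on opposite sides of WT in different preparations. Its log2 fold change over WT was 0.84 in whole testis, where all BORIS KO libraries were above WT and the test was not passed (edgeR adjusted p = 0.235), but -1.43 in round spermatids and -0.68 in spermatocytes, where all were below WT. The spermatocyte call (adjusted p = 0.0494) was lost with DESeq2 (adjusted p = 0.124) and without WT replicate 1 or BORIS KO replicate 2. Spermatogonial markers summed to 125.1 to 156.2 CPM in BORIS KO whole testis and 88.0 to 96.7 in WT, and their part in this was not tested. The difference between preparations was not tested, since whole testis and the sorted cells were prepared and sequenced by different protocols. *Mei1* in CTCF HET was above WT in all libraries in round spermatids (0.78) and below WT in all libraries in spermatocytes (-2.31), where the CTCF HET libraries had 0.137, 0 and 1.52 CPM and the test was not passed (edgeR adjusted p = 0.421). That difference was not tested either. Groups of 2 or 3 libraries are too small for a test of single outlying libraries.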

How the results depend on the processing

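With 3 libraries or fewer per group, and few counts for *Mnd1*, *Prdm9* and *Dmc1*, small changes were not detectable at this depth. Of the values recomputed for counts of members, 189 stayed within 1.5 times of the count reported and 27 did not. Of those for called members, 299 kept direction and call, 71 kept direction only and 1 reversed: *Msh4* in BORIS KO round spermatids, 0.092 with CTCF HET as the reference, a choice made after seeing the data.

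With all groups in 1 fit, the members called went from 0 to 1 in CM against CTCF HET whole testis (*Prdm9*), from 3 to 0 in CTCF HET round spermatids, from 5 to 3 in BORIS KO round spermatids, from 0 to 2 in CM round spermatids (*Dmc1* and *Prdm9*), from 4 to 1 in BORIS KO spermatocytes (*Mlh3*) and from 6 to 3 between the BORIS KO fractions. At the study's thresholds they went to 0 in CTCF HET round spermatids, 2 in BORIS KO round spermatids, 0 in BORIS KO spermatocytes, and, between the fractions, 2 (WT), 1 (heterozygote), 3 (knockout) and 1 (CM). The replicate block gave 2 in CM against CTCF HET whole testis and moved no other count by over 1.5 times. DESeq2 gave 2 in CM spermatocytes, and the CTCF HET reference gave 1 in BORIS KO spermatocytes (*Msh5*). Leaving out 1 library, counts ran from 1 to 5 in CTCF HET round spermatids, 0 to 4 in CM spermatocytes, 3 to 7 between the WT fractions and 2 to 5 between the CTCF HET fractions. In the upper 50% of heights, 2 members had a BORIS peak and 0 a CTCF peak in CM. Where the number of genes tested or of libraries did not change, the cause was not tested.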

Other observations

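*Msh4* held Pol2 and H3K4me3 peaks about 40 kb inside its model in both genotypes, apart from those at its start. The Pol2 peak there (chr3:153526107-153529016) had a score of 676.47, in the top 14.4% of the WT list, above the 252.68 of the peak at the *Msh4* start (top 33.8%), and in CM the scores were 205.12 and 174.03. Just downstream of *Mei1*, where its own start had no Pol2 or H3K4me3 peak, a Pol2 peak (chr15:81957813-81959068) had a score of 138.07 in WT and 174.14 in CM and an H3K4me3 peak a score of 255.75 in WT and 232.77 in CM. A CM Pol2 peak of score 60.76 overlapped a coding exon at 11706 to 12567 from the start. A Pol2 peak of 7843 bases covered the whole of *Psmc3ip* in CM (score 224.04), and no Pol2 peak was listed at the gene in WT.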
